A study of Arabidopsis thaliana with 20 samples.

Results

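PRX33 and PRX34 are class III peroxidase genes that lie side by side on chromosome 3 of Arabidopsis thaliana. They are described here with 6 relatives, PRX32, PRX37, PRX38, PRX4, PRX62 and PRX71, across autoimmune lines. PRX33 and PRX34 were chosen by their log2 fold changes, which had opposite signs in the line called DM1-DM2d. All 8 genes were named by identifier, with earlier results of these data known. They are 8 of the 73 class III peroxidase genes listed and of the 32833 genes in the count table, and all 8 passed the filter on low counts that 23349 genes passed. Because the choice used DM1-DM2d, every value of these genes in DM1-DM2d against its control is given as a description without a test. Tests of these genes in the other lines may not be independent of the choice either, since earlier results were known.

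Class III peroxidases are secreted haem enzymes of plants, found mainly in the cell wall and the vacuole. They use hydrogen peroxide to oxidise phenolic compounds, which cross-links wall polymers and polymerises lignin, and under other conditions they produce reactive oxygen. PRX33 and PRX34 are known for their part in the apoplastic oxidative burst that follows recognition of microbial patterns, where they act beside the NADPH oxidase RBOHD.

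RNA was sequenced from shoots grown on half-strength Murashige and Skoog medium in long days at 22 °C, and gave 20 libraries in 7 groups and 3 labelled batches. The DM lines are the reference accession Col-0 transformed with constructs that carry a pair of DM genes, whose joint presence causes hybrid autoimmunity. Batch 1 held DM1-DM2d (n = 3) and Col-0 (n = 2) at 12 days after sowing (DAS), and batch 2 held DM6-DM7 (n = 3) and Col-0 (n = 3) at 14 DAS. Batch 3 held Col-0 adr1s with the lines DM1-DM2d adr1s and DM6-DM7 adr1s (n = 3 for each of them), and all of these carry CRISPR-Cas9 edits in the 3 genes ADR1, ADR1-L1 and ADR1-L2, the control included. These genes encode helper immune receptors that act downstream of many sensor receptors. The age of the batch 3 shoots, the promoters that drive the DM genes, the number of independent transformants and the number of plants per library are not given in the sources used here. The libraries are labelled as biological replicates. Each DM group was compared with Col-0 from its own batch.

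Library totals ran from 48360933 to 127276992 counts. Plastid genes took 10.4 to 11.5% of counts in DM1-DM2d and 41.8 to 42.2% in Col-0 at 12 DAS, and at most 0.17% in every other library, so batch 1 stands apart from batches 2 and 3. Summed shoot markers (5 genes) were at 1018 to 1238 CPM (counts scaled to the TMM-adjusted library total) in DM1-DM2d against 21559 to 23155 CPM in its control. They were at 12824 to 16828 CPM in DM6-DM7 against 58039 to 70134 CPM, and at 18419 to 23639 CPM in the DM adr1s lines against 37696 to 41818 CPM. Of the 9 root markers, PYK10 made up nearly all of the summed 283 to 1139 CPM, and the cell-type markers CASP1, CASP2, MYB36, COBL9, EXPA7, EXPA18 and PRP3 each had group means below 1 CPM, with EXPA18 at 0 in 4 groups, EXPA7 in 3 and WOX5 in 1. The part of these differences in the peroxidase results was not tested. In shoots as a whole, a change in the share of a cell type and a change in RNA per cell cannot be told apart. Transcripts of the edited genes were still counted in the adr1s groups, at 8.68 to 67.7 CPM for ADR1, 29.8 to 126 CPM for ADR1-L1 and 11.9 to 26.5 CPM for ADR1-L2, so transcript level does not check the edits.

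The first point for these genes is whether their counts can be told apart, since they are close copies. In the TAIR10.1 RefSeq annotation, PRX33 (AT3G49110) lies at chr3:18200587-18203265 and PRX34 (AT3G49120) at chr3:18207651-18210333, both on the plus strand with 4 exons, 4385 bases apart with 1 annotated gene between them. Their coding sequences match at 963 of 1062 aligned bases (90.7%). The stretch where they differ most is shown because it is where reads are told apart. It holds 16 differences in 60 coding bases, which are in capitals, at coding bases 714 to 773 of PRX33 and 711 to 770 of PRX34.
PRX33: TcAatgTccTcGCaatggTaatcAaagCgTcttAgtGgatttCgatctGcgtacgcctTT
PRX34: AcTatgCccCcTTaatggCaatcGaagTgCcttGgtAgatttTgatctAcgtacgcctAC
The longest run that both transcripts share is 111 coding bases, at 813 to 923 of PRX33 and 810 to 920 of PRX34. It is shown because reads inside it could come from either gene.
PRX33 and PRX34: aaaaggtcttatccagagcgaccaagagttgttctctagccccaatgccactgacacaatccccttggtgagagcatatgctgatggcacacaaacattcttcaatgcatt
The libraries were read as pairs of 150 bases, and no 150-base window of either transcript occurs in another gene. Of the 75-base windows, 3.29% of those of PRX33 and 3.38% of those of PRX34 occur in the other gene.

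**Figure D1:**
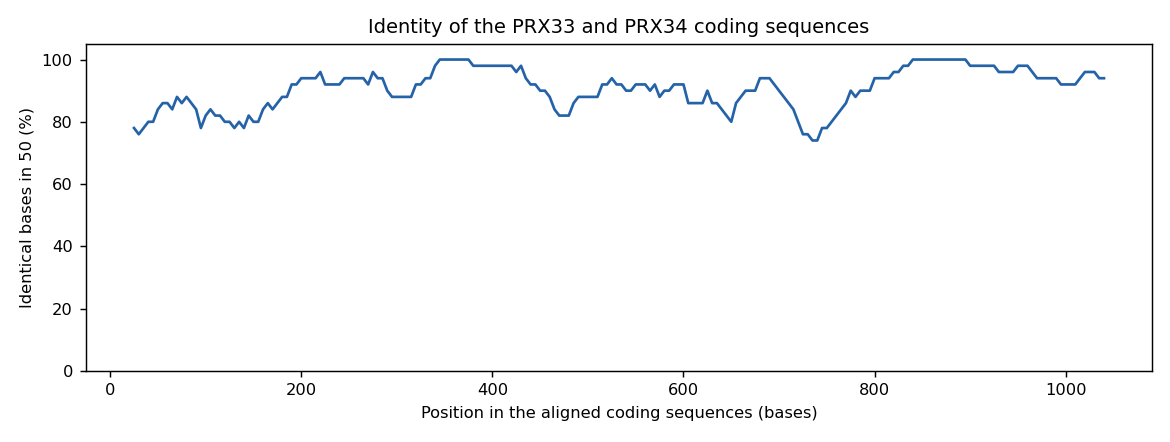
Identity of the PRX33 and PRX34 coding sequences in sliding windows of 50 aligned bases, with the position in the alignment on the x axis and the percentage of identical bases on the y axis. Identity reaches 100% over the shared run of 111 bases and also in the windows centred at alignment positions 345 to 375. It is lowest near the stretch that holds 16 differences in 60 bases.

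Among the other 6 genes the sequences are less alike, except for PRX37 and PRX38. PRX37 (AT4G08770, chr4:5598037-5600398, minus strand) and PRX38 (AT4G08780, chr4:5604105-5608290, plus strand) lie head to head 3706 bases apart with no annotated gene between them, and match at 93.8% of 1041 coding bases. PRX38 overlaps AT4G08790 on the opposite strand, and 10.06% of its 75-base windows occur in PRX37 or AT4G08790, so its counts are less certain than those of the others. PRX32 (AT3G32980, chr3:13526071-13530098, minus strand) matches PRX33 at 83.6% and PRX34 at 84.4% of coding bases. PRX62 (AT5G39580, chr5:15847065-15849141, minus strand) and PRX71 (AT5G64120, chr5:25659257-25661007, minus strand) match at 78.1%, and PRX4 (AT1G14540, chr1:4974021-4975705, minus strand) matches the other genes at 60.3 to 64.0%. PRX32, PRX4, PRX62 and PRX71 share no 50-base window with another gene.

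The 250 bases before the annotated start differ far more than the coding sequences, and are shown for the 2 neighbours because they moved apart. The windows are chr3:18200337-18200586 for PRX33 and chr3:18207401-18207650 for PRX34, on the plus strand of TAIR10.1 (RefSeq). Capitals mark TTGAC, the core of the W-box bound by WRKY factors, on either strand. They also mark TGACG, the core bound by TGA factors, on either strand, and the 2 motifs can overlap by 4 letters.
PRX33: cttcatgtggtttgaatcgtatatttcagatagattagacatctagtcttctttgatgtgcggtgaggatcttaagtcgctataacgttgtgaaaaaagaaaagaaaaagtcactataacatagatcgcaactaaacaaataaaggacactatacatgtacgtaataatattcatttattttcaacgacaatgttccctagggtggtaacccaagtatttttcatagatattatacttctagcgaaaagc
PRX34: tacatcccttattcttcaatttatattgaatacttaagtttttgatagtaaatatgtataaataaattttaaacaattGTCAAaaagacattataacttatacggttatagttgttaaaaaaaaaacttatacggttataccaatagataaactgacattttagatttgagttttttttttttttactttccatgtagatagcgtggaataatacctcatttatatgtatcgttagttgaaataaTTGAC
The longest run of letters that the PRX33 and PRX34 windows share is 8 bases. On both strands, the PRX34 window holds TTGAC 2 times, at -172 and -5 from the start, and the PRX33 window holds neither motif. TTGAC occurs in 44.9% of the 27443 windows of this length before annotated genes, 2 or more times in 14.1%, and TGACG in 18.6%. The windows of PRX32, PRX4 and PRX37 hold neither motif, and that of PRX38 holds TTGAC once. These matches describe letters and do not show binding.

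PRX62 and PRX71 share their motif counts, with 3 TTGAC and 1 TGACG each. They are shown because both genes rose in DM6-DM7, as described below for each gene. PRX4 and PRX37, whose windows hold neither motif, also rose there, by 3.10 and 2.80 on the log2 scale. In DM1-DM2d, PRX62 and PRX71 had opposite signs, at 3.54 and -0.40. A link between motifs and levels was not tested. The windows are chr5:15849142-15849391 for PRX62 and chr5:25661008-25661257 for PRX71, both read on the minus strand.
PRX62: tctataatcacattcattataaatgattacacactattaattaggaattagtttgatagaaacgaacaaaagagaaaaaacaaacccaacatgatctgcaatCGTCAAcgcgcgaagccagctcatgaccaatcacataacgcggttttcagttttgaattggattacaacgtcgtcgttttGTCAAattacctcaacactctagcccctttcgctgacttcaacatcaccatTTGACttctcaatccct
PRX71: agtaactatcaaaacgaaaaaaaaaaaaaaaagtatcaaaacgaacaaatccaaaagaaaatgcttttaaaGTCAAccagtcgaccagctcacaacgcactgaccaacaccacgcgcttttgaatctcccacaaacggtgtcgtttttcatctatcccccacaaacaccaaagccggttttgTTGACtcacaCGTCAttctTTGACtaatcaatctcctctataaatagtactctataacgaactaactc
The windows of PRX37 (chr4:5600399-5600648, minus strand) and PRX38 (chr4:5603855-5604104, plus strand) share an unbroken run of 31 bases, at -140 to -110 of PRX37 and -190 to -160 of PRX38. It is shown because these neighbours also moved in the same direction.
PRX37 and PRX38: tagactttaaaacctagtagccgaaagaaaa

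Per length, PRX34 had the highest level of the 8 genes in each of the 4 DM lines. In DM1-DM2d it stood at 14015, 13860 and 13241 CPM, and in Col-0 at 12 DAS at 134 and 96.2 CPM. All 3 DM1-DM2d libraries lay far above both controls, a log2 fold change of 6.89 ± 0.35 (SE) that was not tested. Counted per length, PRX34 was the 2nd highest of 32548 nuclear genes in each DM1-DM2d library, and it held 1.23 to 1.25% of all counts there. It made up 77.7 to 79.3% of the class III peroxidase transcripts per length in DM1-DM2d and 4.10 to 6.35% in its control.

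In DM6-DM7, PRX34 stood at 4141, 5036 and 5198 CPM, and in Col-0 at 14 DAS at 88.1, 111 and 112 CPM. The groups did not overlap. PRX34 rose by 5.53 ± 0.27 on the log2 scale (46.2-fold; edgeR quasi-likelihood test, adjusted p = 7.97e-11). Its rank per length was 5 to 9 in DM6-DM7 and 1322 to 1792 in the control.

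In the lines labelled adr1s, which belong to another batch, PRX34 was lower than in the lines with ADR1 genes but still above its control. It stood at 520, 913 and 732 CPM in DM1-DM2d adr1s. In DM6-DM7 adr1s it stood at 283, 400 and 483 CPM, and in Col-0 adr1s at 25.5, 30.5 and 42.2 CPM. Each DM library lay above every Col-0 adr1s library. PRX34 rose by 4.46 ± 0.26 in the former (adjusted p = 5.72e-09) and by 3.57 ± 0.25 in the latter (adjusted p = 6.09e-08). These 2 comparisons share the Col-0 adr1s libraries.

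PRX33, its neighbour, showed the opposite pattern in the lines with ADR1 genes. In DM1-DM2d it stood at 4.96, 2.91 and 4.43 CPM and in Col-0 at 12 DAS at 63.4 and 86.3 CPM, with no overlap and a log2 fold change of -4.19 ± 0.43 that was not tested. In DM6-DM7 it stood at 13.0, 6.38 and 7.14 CPM against 23.9, 31.0 and 70.2 CPM in Col-0 at 14 DAS. The DM6-DM7 libraries were all below the controls, whose highest library was replicate 3. PRX33 fell by 2.24 ± 0.38 on the log2 scale (4.72-fold, adjusted p = 8.09e-05).

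In the adr1s lines PRX33 did not pass the test. It stood at 26.0, 21.8 and 34.2 CPM in DM1-DM2d adr1s. In DM6-DM7 adr1s it stood at 24.8, 38.1 and 34.2 CPM, and in Col-0 adr1s at 38.2, 34.6 and 44.3 CPM. The DM1-DM2d adr1s libraries were all below the controls by a small margin, and the DM6-DM7 adr1s libraries overlapped them. The log2 fold changes were -0.51 ± 0.36 (adjusted p = 0.273) and -0.27 ± 0.36 (adjusted p = 0.625). For DM1-DM2d adr1s, a fit on the libraries of that comparison alone gave -0.53 with adjusted p = 0.0302.

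The difference between the DM6-DM7 effect with and without the adr1 edits was tested directly. The rise of PRX34 was larger by 1.96 ± 0.32 on the log2 scale in the line with ADR1 genes (adjusted p = 0.000248), and the fall of PRX33 was larger by an interaction of -1.97 ± 0.51 (adjusted p = 0.00907). This contrast sets batch 2 against batch 3, so batch, age where it differed and the edits cannot be told apart, although each line was measured against its own Col-0 group. The same difference for DM1-DM2d was 2.43 ± 0.35 for PRX34 and -3.67 ± 0.55 for PRX33, not tested; 58.5% of all genes passed the threshold there (26% higher, 32.5% lower).

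PRX34 held a larger share of the counts of the pair in each DM line than in its control. It held 99.96 to 99.98% in DM1-DM2d against 52.7 and 67.9% in Col-0 at 12 DAS, and 99.69 to 99.87% in DM6-DM7 against 61.5 to 78.7% in Col-0 at 14 DAS. In batch 3 it held 40.0 to 48.8% of the pair in Col-0 adr1s. The DM6-DM7 adr1s libraries lay between 91.3 and 93.4%, those of DM1-DM2d adr1s between 95.2 and 97.7%. No DM library overlapped a control. As means, the share was 99.81% ± 0.10 (SD, n = 3) in DM6-DM7 and 72.8% ± 9.8 (SD, n = 3) in its control, with an exact two-sided permutation p = 0.1. DM1-DM2d adr1s stood at 96.1% ± 1.3 (SD, n = 3) and DM6-DM7 adr1s at 92.2% ± 1.1 (SD, n = 3) against 45.2% ± 4.6 (SD, n = 3), with an exact permutation p = 0.1 each. With 3 libraries against 3, 0.1 is the smallest p that this test can give. The shares also carry the 95% Clopper-Pearson intervals of the counts, which cover counting error only.

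**Figure D2:**
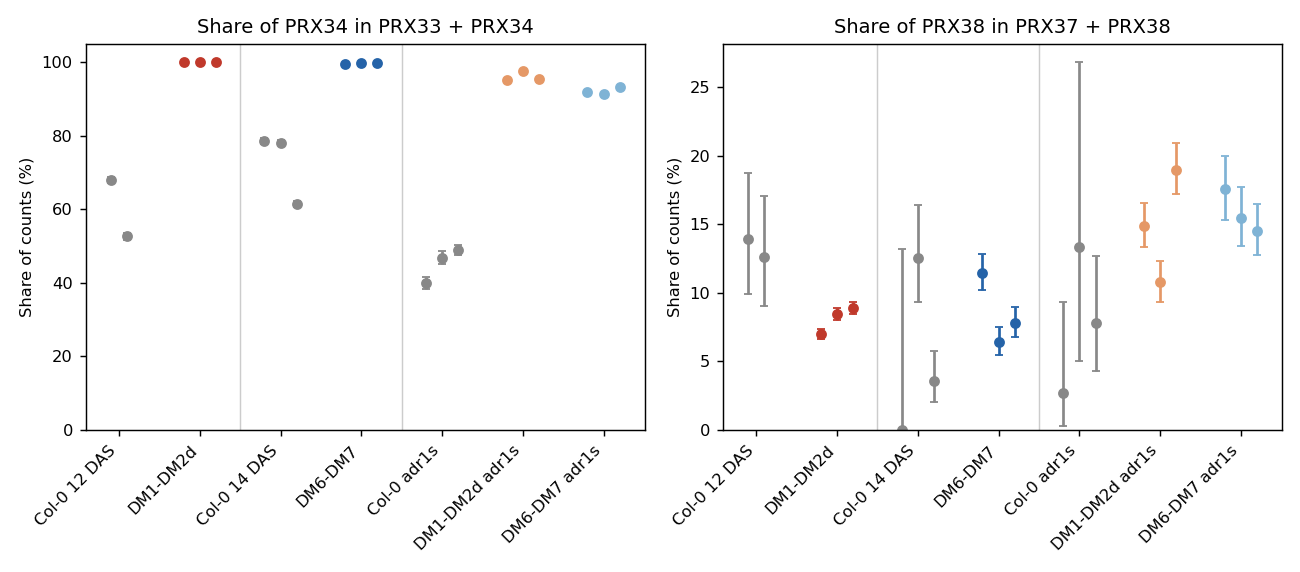
Share of PRX34 in the counts of PRX33 plus PRX34 (left) and of PRX38 in the counts of PRX37 plus PRX38 (right), in percent. Each point is a library with its 95% Clopper-Pearson interval and grey lines divide the batches. PRX34 held 91.3% or more in every DM library, and the PRX38 shares overlapped in DM6-DM7 and in DM1-DM2d adr1s.

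PRX34 levels separated the groups in the order DM1-DM2d, DM6-DM7, their adr1s counterparts in the same order, then the Col-0 groups. The libraries of neighbouring groups overlapped only between Col-0 at 12 DAS (115 ± 26.8 CPM, SD, n = 2) and Col-0 at 14 DAS (104 ± 13.6 CPM, SD, n = 3). For PRX33 the order ran the other way, from Col-0 at 12 DAS (74.9 ± 16.2 CPM, SD, n = 2) down to DM6-DM7 (8.84 ± 3.62 CPM, SD, n = 3) and DM1-DM2d (4.10 ± 1.06 CPM, SD, n = 3). The 5 upper groups of PRX33 each overlapped the next, and the 2 lowest were separate. Both orders set 3 batches side by side, so batch, age where it differed, line and edits cannot be told apart in them. The orders were not tested, and the choice of PRX33 and PRX34 used DM1-DM2d.

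PRX32, the nearest relative of the pair by sequence, was far above its control in DM1-DM2d and within 1 log2 unit of it in the other lines. It stood at 159, 151 and 121 CPM in DM1-DM2d against 13.7 and 21.0 CPM, with no overlap and a log2 fold change of 3.05 ± 0.20 that was not tested. In DM6-DM7 it stood at 18.2, 19.8 and 21.3 CPM against 16.0, 20.9 and 17.5 CPM, overlapping groups with a log2 fold change of 0.13 ± 0.16 (adjusted p = 0.5). In DM1-DM2d adr1s it rose by 0.58 ± 0.16 (adjusted p = 0.00715), and without DM1-DM2d adr1s replicate 1 the adjusted p was 0.0518.

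PRX37, whose overexpression is known to dwarf plants, and its neighbour PRX38 moved in the same direction. PRX37 stood at 210, 166 and 170 CPM in DM1-DM2d against 3.37 and 3.96 CPM, with no overlap and a log2 fold change of 5.63 ± 0.79 that was not tested. It stood at 19.4, 18.1 and 20.3 CPM in DM6-DM7 against 0.260, 3.04 and 5.03 CPM in Col-0 at 14 DAS. These groups did not overlap, and PRX37 rose by 2.80 ± 0.59 (adjusted p = 0.000594). In Col-0 adr1s it was at 0.749 to 2.69 CPM. It was at 22.4 to 25.6 CPM in DM1-DM2d adr1s, a rise of 3.94 ± 0.64 (adjusted p = 0.000133). It was at 14.1 to 19.7 CPM in DM6-DM7 adr1s, a rise of 3.35 ± 0.63 (adjusted p = 0.000762), and neither line overlapped the control.

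PRX38 was low in all groups but moved the same way. It was at 15.4 to 16.6 CPM in DM1-DM2d and at 0.543 and 0.573 CPM in Col-0 at 12 DAS, a log2 fold change of 4.83 ± 0.73 that was not tested. In Col-0 at 14 DAS it had 0, 46 and 16 counts, and in DM6-DM7 256, 155 and 194 counts, with no overlap and a rise of 3.10 ± 0.61 (adjusted p = 0.000306). A fit on those libraries alone gave an adjusted p of 0.0564. In Col-0 adr1s it had 2, 6 and 14 counts, and it rose by 5.04 ± 0.70 with DM1-DM2d (adjusted p = 2.71e-05) and by 4.55 ± 0.70 with DM6-DM7 (adjusted p = 0.00012). The PRX38 share of the counts of the pair was 8.57% ± 2.60 (SD, n = 3) in DM6-DM7 and 5.39% ± 6.47 (SD, n = 3) in its control (exact two-sided permutation p = 0.5). In Col-0 adr1s it was 7.93% ± 5.33 (SD, n = 3). It was 14.9% ± 4.11 (SD, n = 3) in DM1-DM2d adr1s (exact permutation p = 0.2) and 15.8% ± 1.55 (SD, n = 3) in DM6-DM7 adr1s, with no overlap (exact permutation p = 0.1, the smallest possible). In DM1-DM2d it lay the other way, at 8.11% ± 0.99 (SD, n = 3) against 13.3% ± 0.90 (SD, n = 2), with no overlap and not tested.

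For PRX37 and PRX38 the difference between the DM6-DM7 effect with and without the adr1 edits did not pass the test. That does not show equal effects, and batch and edits cannot be told apart in this contrast. The interactions were -0.55 ± 0.82 (adjusted p = 0.663) and -1.45 ± 0.95 (adjusted p = 0.271). Without Col-0 at 14 DAS replicate 1, where PRX38 had 0 counts, the PRX38 interaction was -2.04 with adjusted p = 0.0161.

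PRX4, a gene known to be induced by microbial patterns, was at most a few CPM in every Col-0 group. It stood at 68.4, 45.9 and 39.1 CPM in DM1-DM2d against 1.92 and 4.44 CPM, a log2 fold change of 4.01 ± 0.51 that was not tested. In DM6-DM7 it stood at 11.0, 12.1 and 11.3 CPM against 1.91, 1.49 and 0.564 CPM, with no overlap and a rise of 3.10 ± 0.42 (adjusted p = 8.41e-06). In Col-0 adr1s it had 4, 2 and 13 counts, and it rose by 2.76 ± 0.67 with DM1-DM2d (adjusted p = 0.00344) and by 3.12 ± 0.65 with DM6-DM7 (adjusted p = 0.00171). Its DM6-DM7 interaction was -0.02 with adjusted p = 1.

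PRX71, known to restrict growth when the cell wall is damaged, differed in sign from 6 of the others in DM1-DM2d. It stood at 226, 172 and 174 CPM there against 254 and 251 CPM in Col-0 at 12 DAS, below both controls, with a log2 fold change of -0.40 ± 0.21 that was not tested. In DM6-DM7 it stood at 1252, 1578 and 1449 CPM against 40.8, 60.8 and 52.7 CPM. These groups did not overlap, and PRX71 rose by 4.79 ± 0.23 (27.7-fold, adjusted p = 6.37e-11). Its control level in batch 1, 253 ± 2.2 CPM (SD, n = 2), was above that of Col-0 at 14 DAS, 51.4 ± 10.0 CPM (SD, n = 3), and of Col-0 adr1s, 55.9 ± 8.75 CPM (SD, n = 3). Those controls come from different batches and were not tested against each other.

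PRX71 stood at 270, 307 and 319 CPM in DM1-DM2d adr1s. In DM6-DM7 adr1s it stood at 140, 120 and 216 CPM, and in Col-0 adr1s at 46.1, 58.3 and 63.1 CPM. All DM libraries were above the controls, with rises of 2.42 ± 0.20 (adjusted p = 1.53e-07) and 1.51 ± 0.20 (adjusted p = 2.23e-05). The DM6-DM7 effect was larger by 3.29 ± 0.28 with ADR1 genes than in adr1s (adjusted p = 1.56e-06). For DM1-DM2d the same difference was -2.82 ± 0.29, not tested, so it had the opposite sign.

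PRX62, a peroxidase of root hair growth, stood at 222, 171 and 165 CPM in DM1-DM2d against 14.1 and 17.9 CPM, a log2 fold change of 3.54 ± 0.55 that was not tested. In DM6-DM7 it stood at 48.5, 47.3 and 44.0 CPM against 1.17, 4.91 and 1.39 CPM. These groups did not overlap, and PRX62 rose by 4.22 ± 0.49 (adjusted p = 1.74e-06). In Col-0 adr1s it was at 2.09 to 5.49 CPM. The DM6-DM7 adr1s libraries lay between 4.87 and 8.48 CPM and overlapped these, and the DM1-DM2d adr1s libraries lay between 7.75 and 13.7 CPM and did not. It rose by 1.37 ± 0.45 in DM1-DM2d adr1s (adjusted p = 0.0219) and had a log2 fold change of 0.66 ± 0.45 in DM6-DM7 adr1s (adjusted p = 0.301). The first call was lost without DM1-DM2d adr1s replicate 3 (adjusted p = 0.1) and without Col-0 adr1s replicate 1 (adjusted p = 0.0966). The DM6-DM7 effect was larger by 3.56 ± 0.64 with ADR1 genes (adjusted p = 0.000737).

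**Figure D3:**
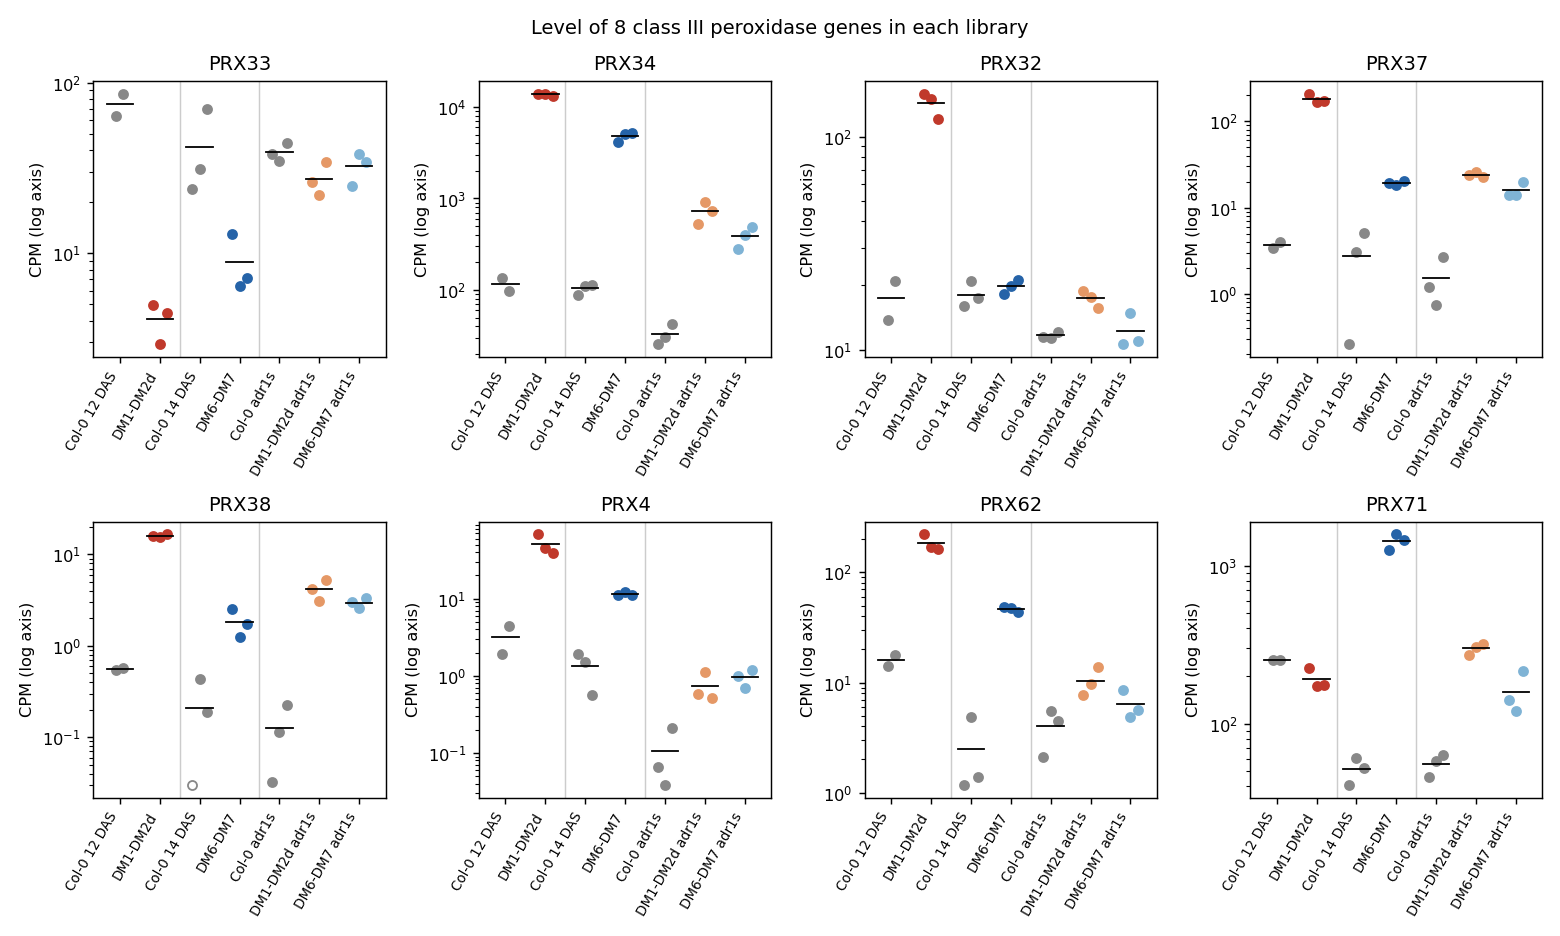
Levels of the 8 genes in CPM on log axes, with each point a library, bars at the group means and grey lines between batches; axes differ between panels. The open circle marks the PRX38 library with 0 counts, drawn at the level of 3 counts. PRX33 is lowest where PRX34 is highest, and PRX71 is highest in DM6-DM7.

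Across the 8 genes, 6 rose and 1 fell in DM6-DM7, where 35% of all genes tested rose and 29.7% fell (64.8% in all). Such counts may not be independent of the choice of the genes, which was made with earlier results known. In DM1-DM2d adr1s 7 rose and 0 fell, where 23.9% of all genes rose and 18.8% fell (42.7% in all). The DM6-DM7 adr1s comparison had 5 that rose and 0 that fell, where 18.6% rose and 12.6% fell (31.2% in all). In these adr1s comparisons PRX33 alone had a log2 fold change below 0, and 0 of the 8 fell at an unadjusted edgeR p under 0.05 or under DESeq2. The median log2 fold change of the 8 was 3.10 in DM6-DM7, 2.59 for DM1-DM2d adr1s and 2.31 for DM6-DM7 adr1s, against 0.06, 0.03 and 0.02 over all genes tested. In the DM6-DM7 interaction 3 were higher and 1 lower, where 14.9% of all genes were higher and 16.3% lower (31.2% in all). In DM1-DM2d, 6 of the 8 had positive log2 fold changes with a median of 3.77, and 73% of all genes tested passed the threshold there. The median over all genes was 0.01, but the choice of the genes used this comparison, so the 2 medians are only a description. The groups did not overlap for 8 of 8 genes in DM1-DM2d (85.8% of all genes), for 7 of 8 in DM6-DM7 (60.9%), for 8 of 8 in DM1-DM2d adr1s (61.9%) and for 5 of 8 in DM6-DM7 adr1s (52.5%).

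**Figure D4:**
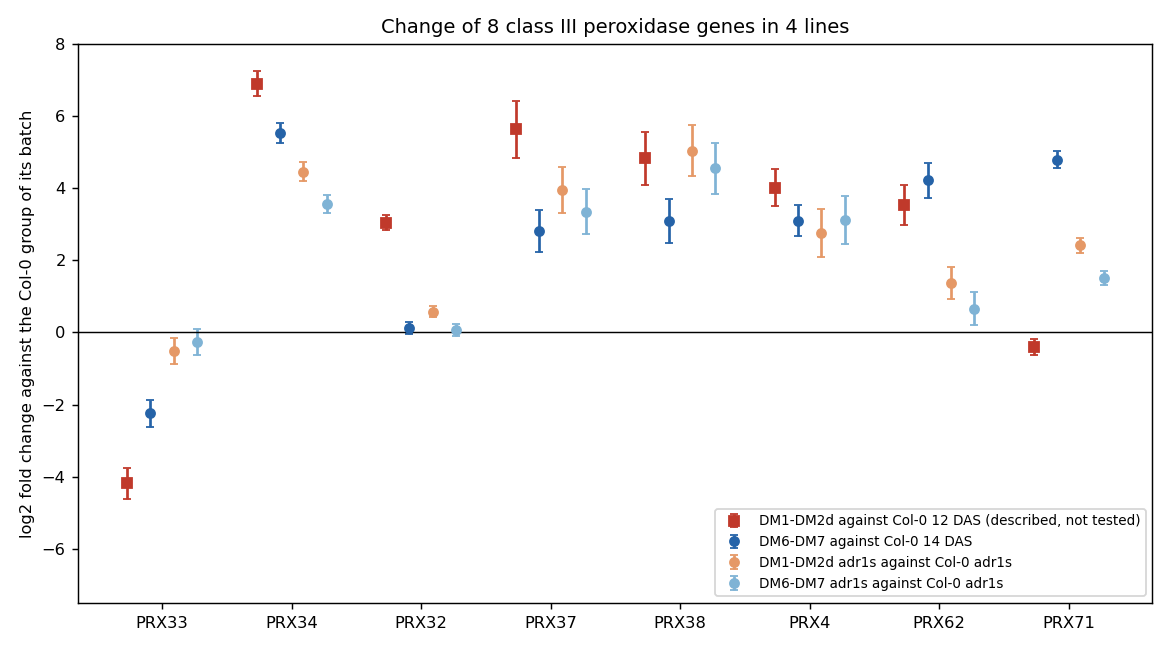
Log2 fold change of the 8 genes in each DM line against its batch's Col-0, with bars of 1 SE. Squares mark DM1-DM2d, which was described and not tested. PRX34 is above 3.5 in all 4 lines, PRX33 is below 0 in all 4, and PRX71 is below 0 only in DM1-DM2d.

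DM1-DM2d adr1s and DM6-DM7 adr1s carry the same batch number in the labels and were compared directly. Of the 8 genes 2 were higher in DM1-DM2d adr1s and 0 lower, where 5.42% of all genes were higher and 3.49% lower (8.91% in all); 0 were lower at an unadjusted edgeR p under 0.05 or under DESeq2. PRX71 was higher by 0.91 ± 0.19 (adjusted p = 0.00744) and PRX34 by 0.89 ± 0.23 (adjusted p = 0.0198). The log2 differences of PRX32 (0.52 ± 0.16, adjusted p = 0.0515) and PRX33 (-0.24 ± 0.36, adjusted p = 0.746) did not pass. For PRX32 the adjusted p ran from 0.027 to 0.241 over 15 alternatives, and it passed in 6 of them, the replicate block (0.0348), DESeq2 (0.027) and the fit without DM6-DM7 adr1s replicate 2 (0.0348) among them. With 1 library left out, the log2 difference ran from 0.657 to 1.045 for PRX34 and from 0.718 to 1.159 for PRX71. Neither call held in all of these fits. That of PRX34 was lost without DM1-DM2d adr1s replicate 2 (adjusted p = 0.137) or 3 (0.0649) or DM6-DM7 adr1s replicate 1 (0.118) or 2 (0.0709), and that of PRX71 without DM6-DM7 adr1s replicate 1 or 2 (0.053 each).

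Over the 20 libraries, log2 levels of PRX33 and PRX34 had a Pearson correlation of -0.878, and those of PRX37 and PRX38 one of 0.966. PRX62 and PRX4 stood at 0.926. PRX33 was negative with all 7 others, from -0.878 to -0.455, and PRX71 ranged from 0.129 with PRX32 to 0.681 with PRX34 among the other 6. The libraries share batches and fall into groups, so these values describe the pattern and carry no p. The 20 libraries include DM1-DM2d and its control, where PRX33 and PRX34 were chosen for opposite signs. Their negative correlation therefore follows in part from the choice. The genes outside the 8 most like PRX34 were CSY3 (r = 0.995), a peroxisomal citrate synthase, VSR7 (0.991), a vacuolar sorting receptor, and CYP71B19 (0.991), a cytochrome P450. Those most like PRX33 were SLP3 (0.972), AT3G54790 (0.971) and SFH3 (0.97).

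Among the other class III peroxidases, 56 of 65 were tested. In DM6-DM7 23 rose and 10 fell (median 0.70), where 35% of all genes rose and 29.7% fell. PRX45 rose by 5.78 ± 0.53, PRX50 by 5.51 ± 0.28 and its chromosomal neighbour PRX51 by 4.67 ± 0.29 beside 5.53 ± 0.27 for PRX34. PRX66, known from lignifying vessels, fell by 3.11 ± 0.32 and PRX39 by 2.63 ± 0.51. For DM1-DM2d adr1s 21 rose and 4 fell, where 23.9% of all genes rose and 18.8% fell. For DM6-DM7 adr1s 22 rose and 2 fell, where 18.6% rose and 12.6% fell. PRX49 rose by 4.34 ± 0.37 in DM1-DM2d adr1s and PRX52, known from the lignification of stems, by 4.73 ± 0.64 in DM6-DM7 adr1s. In DM1-DM2d 27 rose and 13 fell, where 36.6% of all genes rose and 36.4% fell. Among those with a mean of at least 2 CPM, PRX52 rose most, by 10.19 ± 0.76. PRX5 rose by 8.21 ± 1.29 and PRX53 by 7.75 ± 0.40. Summed over the libraries of Col-0 at 12 DAS, PRX52 had 36 counts and PRX5 had 2. PRX19 fell by 5.97 ± 0.27, PRX66 by 3.61 ± 0.35 and PRX12 by 3.38 ± 0.21.

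The 8 genes made up 83.3 to 83.9% of class III peroxidase transcripts per length in DM1-DM2d and 22.0 to 24.7% in its control. They made up 65.1 to 67.8% in DM6-DM7 against 9.01 to 14.2%, and 29.6 to 41.0% in the DM adr1s lines against 10.8 to 14.8%. In DM1-DM2d PRX34 alone held 77.7 to 79.3%. The choice of the genes used that line, so the shares there are only a description. PRX42, another member of the family, held 49.9 to 70.6% in the Col-0 groups and 0.766 to 0.904% in DM1-DM2d. It held 5.58 to 7.25% in DM6-DM7 and 23.9 to 36.4% in the DM adr1s lines. A share also falls when other members rise, so it does not measure the level of PRX42 itself. Raw counts of PRX42 summed to 47286 in DM1-DM2d (n = 3) and 191523 in its control (n = 2). The summed level of the family was 11033 to 11852 CPM per kilobase in DM1-DM2d and 1389 and 1542 CPM per kilobase in its control.

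**Figure D5:**
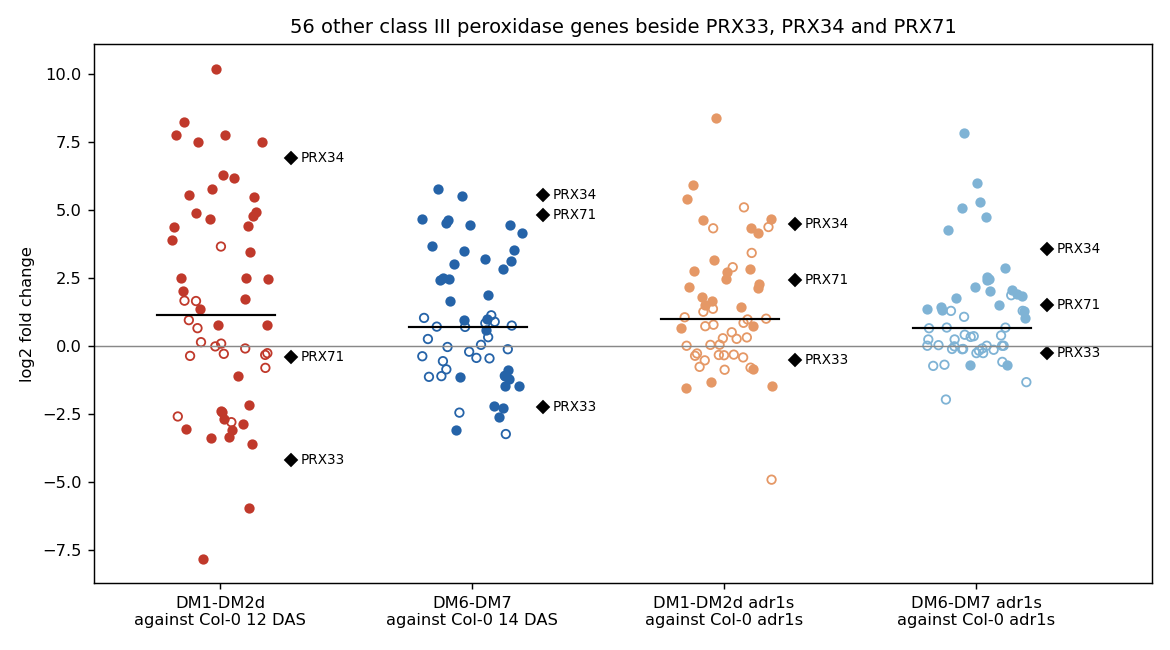
Log2 fold change of the 56 other class III peroxidases tested, with filled points for adjusted p below 0.05, a bar at the median of the 56, and black diamonds for PRX33, PRX34 and PRX71, which were not tested in DM1-DM2d. Fitted values of genes with almost no counts in the control depend on the prior count. PRX34 lies above the median of the family in all 4 lines and PRX33 below it.

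The other parts of the oxidative burst and wall pathway were read from fixed lists. Of all genes tested, 35% rose and 29.7% fell in DM6-DM7, and 36.6% rose and 36.4% fell in DM1-DM2d. The all-gene shares were 23.9% and 18.8% in DM1-DM2d adr1s, and 18.6% and 12.6% in DM6-DM7 adr1s. The list counts below are to be read beside these shares. Of 8 NADPH oxidase genes tested, which make superoxide at the plasma membrane, 6 rose and 0 fell in DM6-DM7 and in each adr1s line. The adr1s calls of RBOHA and RBOHG rest on few counts. Their means over the libraries compared were 0.093 and 0.097 CPM with DM1-DM2d adr1s, and 0.023 and 0.054 CPM with DM6-DM7 adr1s. RBOHF rose by 2.28 ± 0.17 in DM6-DM7, by 0.84 ± 0.16 with DM1-DM2d adr1s and by 0.89 ± 0.16 with DM6-DM7 adr1s. In DM1-DM2d 5 rose and 1 fell, with RBOHD, the main oxidase of the immune burst, up by 1.59 ± 0.23. RBOHD rose by 0.575 ± 0.196 in DM6-DM7 and by 0.503 ± 0.196 in DM1-DM2d adr1s. Its log2 fold change in DM6-DM7 adr1s was -0.039 ± 0.196 (edgeR adjusted p = 0.92). Of 14 catalases, ascorbate peroxidases and superoxide dismutases, which remove reactive oxygen, 4 rose and 7 fell in DM6-DM7 itself. The counts were 7 and 4 for DM1-DM2d adr1s, and 3 and 4 for DM6-DM7 adr1s. CAT3, a catalase, rose by 2.58 ± 0.25 in DM6-DM7, while TAPX, the thylakoid ascorbate peroxidase, fell by 2.50 ± 0.14. In DM1-DM2d 4 of these 14 rose and 8 fell, and CAT3, named for DM1-DM2d after its value was seen, fell by 0.74 ± 0.27. Of 22 genes of monolignol synthesis and lignin polymerisation, 11 rose and 6 fell in DM6-DM7 itself. The counts were 8 and 6 for DM1-DM2d adr1s, and 3 and 6 for DM6-DM7 adr1s. CAD5, of the last step to monolignols, rose by 2.28 ± 0.20 in DM6-DM7, and LAC17, a laccase, fell by 2.81 ± 0.25. In DM1-DM2d 16 of these 22 rose and 6 fell.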

How the data were processed

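The deposited table holds raw read counts per gene for 20 shoot libraries. Per the submitters' processing notes, fastp 0.23.2, HISAT2 2.2.1, featureCounts 2.0.1, DESeq2 1.34.0 and the TAIR10 build are among the tools the authors name, and the labels' protocols state strand-specific paired reads. The counting options are not given in the sources used here. Of the counts below 20, 64.9 to 78.0% were even, so both mates may have been counted and counting intervals are then too narrow.

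Libraries were scaled by TMM and genes filtered at a minimum count of 10. One edgeR 4.0.16 quasi-likelihood model (R 4.3.3) with a term per group was fitted to all 20 libraries, and its p-values received the Benjamini-Hochberg adjustment over 23349 genes, with a threshold of 0.05. CPM are TMM-scaled, and the SE is the log2 fold change divided by the root of F. The script was tested on simulated data. Group and batch came from the labels, and replicate numbers did not pair the libraries. Named genes were all 8 members, the 3 most raised and 3 most lowered other peroxidases per comparison whose mean reached 2 CPM, and up to 3 called genes of each other list in its main direction and 1 in the other, of which some are printed. The members and lists were chosen with earlier results of these data known. Sequences and coordinates are from RefSeq TAIR10.1. Alternatives covered scaling, filters, DESeq2 1.42.0, a replicate block, smaller fits, a stricter threshold and libraries left out.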

Additional observations from a re-analysis of the deposited data

Results flagged for a closer look

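The effect of DM6-DM7 against its own Col-0 group differed between the line with ADR1 genes and the adr1s line for 4 of the 8 genes, by the interaction term of the edgeR model. The log2 difference was 3.56 for PRX62, 3.29 for PRX71, 1.96 for PRX34 and -1.97 for PRX33. The 2 lines belong to different batches, and batch and edits cannot be told apart.

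DM1-DM2d adr1s and DM6-DM7 adr1s, of 1 batch, differed by 0.91 for PRX71 and 0.89 for PRX34 on the log2 scale, both higher in DM1-DM2d adr1s. Neither call held in every fit with 1 library left out.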

How the results depend on the processing

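Over all alternatives, the values of single genes kept their direction and call 867 times, lost a call 12 times, gained one 9 times, moved by more than the spread between replicates 15 times and reversed once. The reversal was PRX38 in the DM1-DM2d interaction, at -0.21, which ranged from -1.01 to 0.26 (without Col-0 adr1s replicate 1) with 1 library left out. Counts of calls and shares of the pairs held 323 times and moved 16 times. Fitted on its own libraries, DM1-DM2d adr1s had 1 of the 8 genes called lower, and DM1-DM2d adr1s against DM6-DM7 adr1s had 3469 genes called and 4 of the 8 higher, in place of 2080 and 2. At an adjusted p of 0.01, 4799 genes in place of 7290 were called in DM6-DM7 adr1s, 4177 in place of 7277 in the DM6-DM7 interaction, and 775 with 1 of the 8 higher between the adr1s lines. With 1 library left out, the adr1s lines differed in 994 to 1705 genes with 0 to 2 of the 8 higher, and the interaction had 1 to 2 of the 8 lower. Under DESeq2 the adr1s lines differed in 3053 genes.

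Upper-quartile scaling shifted the median of all genes by -0.302 in DM1-DM2d, -0.178 in DM6-DM7 and -0.162 in the DM6-DM7 interaction. It left 42.4% of calls higher in DM6-DM7 in place of 54.1%, and 29% in the interaction in place of 47.8%. Same-numbered libraries had correlations of -0.249 to 0.178 over 57 pairs, and 4 of 20 libraries were closest to their own number. A replicate block gave 14846 genes called in DM6-DM7 in place of 15124, and the PRX32 difference between the adr1s lines became 0.53 with adjusted p = 0.0348. The cause of these changes was not tested. PRX38 and PRX4 had 2 to 14 counts per Col-0 adr1s library, and PRX38 had 0 in Col-0 at 14 DAS replicate 1, so their fold changes rest on few counts.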
